A study of Zea mays with 157 samples.

Results

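The shoot apical meristem of maize (Zea mays) was followed through the vegetative stages V1, V3 and V4. Its 18 libraries, chosen by the tissue label, are part of 157 samples of the series. They comprise 9 mRNA libraries and 9 circRNA libraries, with 1 of each kind per stage and line. The lines were the inbreds B73 and Mo17 and the F1 hybrid of B73 and Mo17, all grown untreated in a greenhouse at 25 °C with 12 h of light and 12 h of darkness. RNA was taken from 5 to 10 plants per extract, and 3 extracts were pooled in equal amounts for each library. Each gene or circRNA has 1 deposited value per stage and line, so the spread between plants is not known. Unless stated otherwise, the p-values below rest on how far the stage differences vary between the 3 lines, since line is held as a block. The lines are genotypes and not repeats of a genotype. F1 is the cross of B73 and Mo17, so the lines are not independent.

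The shoot apical meristem is a small dome of dividing cells at the tip of the shoot. It keeps a pool of undifferentiated cells, lays down leaf primordia on its flanks and adds cells to the stem below. Vegetative stages are counted by the leaves whose collar is visible, and in maize the apex later stops making leaves and becomes the tassel. A circRNA is a closed RNA ring joined by back-splicing, in which a splice donor is linked to an acceptor upstream of it. Its host is the gene it is spliced from.

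The mRNA values are in different units in the tables of the 3 lines, so every library was rescaled by the median of its ratios to the per-gene geometric mean, taken over 6577 genes at 1 or more in all 9. These are called scaled values below. Stages were compared over 7758 genes that are paired between the B73 and Mo17 genomes and stood at 1 or more in at least 3 of the 9 libraries. The test was limma on log2(scaled value + 1), with line as a block and Benjamini-Hochberg adjustment at 0.05. None of the 82766 gene identifiers of the mRNA tables matched the reference gene table, and the files do not pair them with names. Genes are therefore given by identifier, without a role, and the gene lists made by symbol could not be tested. In bulk tissue, fewer cells of a type and less RNA per cell cannot be told apart.

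By its mRNA, the meristem was closest to young tassel. Within each line, the Spearman correlation with the most similar tissue outside the meristem, over 10889 paired genes, lay between 0.949 and 0.972, and that tissue was the 2 mm or the 1 cm tassel in all 9 libraries. The most similar leaf reached only 0.687 to 0.769. Stem or internode reached 0.881 to 0.927. The 3 meristem stages of a line correlated with each other at 0.962 or more. Genes high in leaf, chosen from the other tissues, had a median scaled level of 0.523 to 0.917 in the meristem libraries. The markers of meristem, leaf and root that are known by symbol could not be looked up, so the label was checked in this way only.

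Between V1 and V4 the meristem's mRNA shifted away from genes that are higher in stem and internode than in other organs, and towards genes that are higher in ear, tassel and inflorescence. For each organ the 100 genes with the highest ratio of that organ's median to the highest median of the other organs were taken, without use of the meristem libraries. The preference is weak in the sets that moved, since the lowest ratio was 1.82 for ear, tassel and inflorescence and 1.74 for stem and internode, against 26.0 for leaf and 12.9 for primary root. The ear, tassel and inflorescence set had median scaled levels of 21.5, 22.1 and 27 in B73 at V1, V3 and V4. In Mo17 the medians of this set were 17.9, 25.5 and 32.7. In F1 they were 21.4, 26.9 and 29.1. The V4 libraries thus all lay above all V1 libraries. Of the 98 members tested, 36 rose and 1 fell in V4 against V1. Their median log2 fold change was 0.46, against 0.01 over all genes tested, of which 6.82% rose and 8.51% fell. The number that rose was 9 without Mo17, 23 without Mo17 at V1, 8 without F1 at V1, and 9, 11 and 5 without B73, Mo17 and F1 at V4, while the median stayed between 0.42 and 0.53 with any line or library left out.

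The stem and internode set moved the other way. Its median scaled level was 17.6, 11.6 and 12.3 in B73 at V1, V3 and V4, and 16.8, 10.9 and 13.2 in Mo17. In F1 it was 21.8, 13.6 and 13. The drop lay between V1 and V3, with no further drop at V4 in B73 and Mo17. Of 98 members tested, 35 fell and 4 rose in V4 against V1, with a median log2 fold change of -0.45. In V3 against V1, 33 fell and 1 rose, with a median of -0.68. In V4 against V1 the number that fell was 14 without Mo17, 9 without F1 at V1, and 10, 15 and 2 without B73, Mo17 and F1 at V4. For V3 against V1 it was 0 without F1 and 18 without Mo17, 0 without F1 at V1, 10 without Mo17 at V3, 1 without F1 at V3 and 17 without F1 at V4, while the median stayed between -0.807 and -0.605. Without the F1 libraries none of the 98 members of either set passed the test at V4 against V1, and the medians were then 0.50 for ear, tassel and inflorescence and -0.41 for stem and internode.

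**Figure D1:**
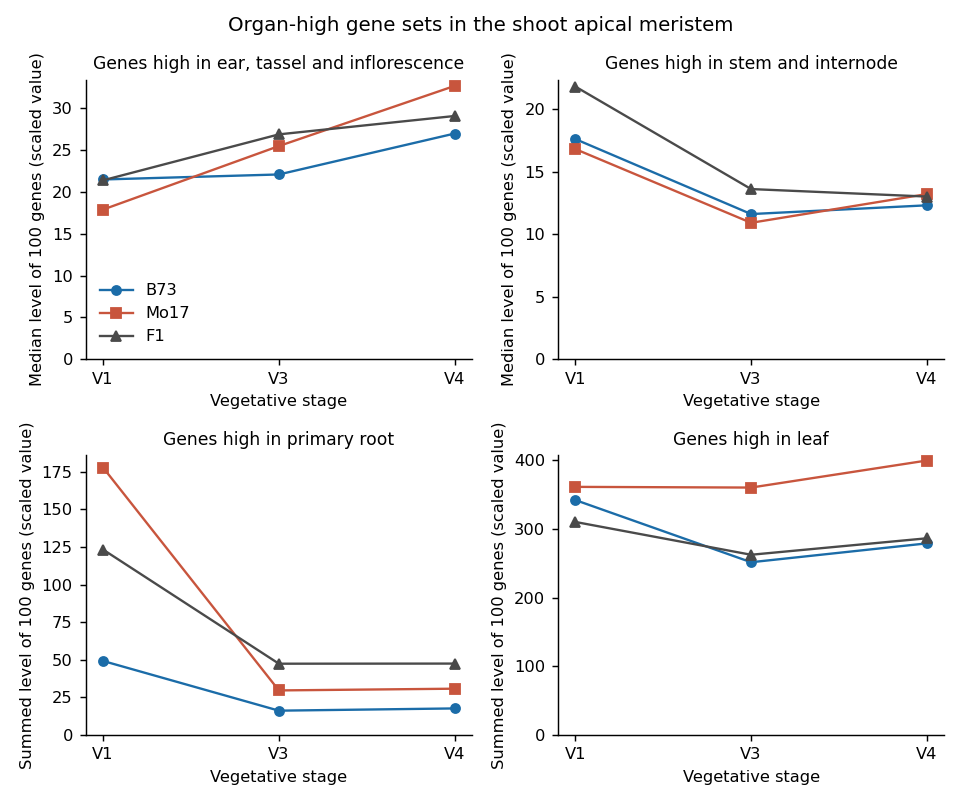
Levels of organ-high gene sets in the meristem at V1, V3 and V4, 1 point per library and 1 line per genotype, with stages evenly spaced on the horizontal axis. The vertical axis is the median (ear, tassel and inflorescence; stem and internode) or the sum (primary root; leaf) of the scaled values of 100 genes. The ear, tassel and inflorescence set ends at 27 in B73, 32.7 in Mo17 and 29.1 in F1 at V4, and the primary root set has its highest sum at V1 in each line.

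Genes high in primary root were at trace level in the apex, and that trace was largest at V1. Their summed scaled level was 49.1, 16.1 and 17.6 in B73 at V1, V3 and V4. It was 178, 29.5 and 30.7 in Mo17 and 123, 47.3 and 47.4 in F1. All 3 V1 libraries exceeded every V3 and V4 library. The set's median in root tissue was 26.0, on a scale set over all 78 mRNA libraries, while in the meristem libraries its median stayed at 0.0697 or less on that scale, and at V3 and V4 between 45 and 55 of the 100 genes were at 0. Only 13 of the 100 passed the filter on low values. Between 13 and 19 of the 100 stood at 1 or more in the V1 libraries and between 5 and 8 at V3 and V4, so some could pass only through V1, and the set is described by its levels alone. Whether cells other than those of the meristem were included at V1 was not tested.

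Leaf-high genes showed no common shift. Their summed level was 342, 251 and 279 in B73 at V1, V3 and V4, and 361, 360 and 400 in Mo17. In F1 it was 310, 262 and 286. Of 50 members tested, 5 rose and 5 fell in V4 against V1, with a median log2 fold change of -0.02. Genes high in endosperm differed between lines at V3, which was lower than V1 in B73 and F1 and higher in Mo17. Their median scaled level was 1.16, 0.339 and 0.823 in B73 at V1, V3 and V4, against 0.831, 1.21 and 1.73 in Mo17 and 1.24, 1.07 and 1.51 in F1. Of the 55 tested, 7 rose and 2 fell in V4 against V1, with a median log2 fold change of 0.48. That median was 0.05 in B73, 0.72 in Mo17 and 0.42 in F1, and over the lines it was 0.09 without Mo17 at V1, 0.11 without Mo17 and 0.01 with no filter on low values. None rose and 5 fell in V3 against V1, with a median of -0.12. Of 28 embryo-high genes tested, 1 rose and 2 fell.

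Over all genes, 1189 of 7758 (15.3%) changed in V4 against V1, with 529 higher and 660 lower. Most changes were modest. The median absolute log2 fold change of the called genes was 0.63 and the lowest 0.29, and 262 genes (3.38%) changed by 2-fold or more, 110 of them upwards (1.42%) and 152 downwards (1.96%). Changes of 4-fold or more were seen for 15 higher and 31 lower genes. All 1189 had the same direction in the 3 lines, which 53.6% of all genes tested also had. For 944 of them the 3 V4 libraries did not overlap the 3 V1 libraries, as was the case for 27.7% of all genes tested. A linear trend over the stage number passed the test for 885 genes (11.4%), 383 rising (4.94%) and 502 falling.

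These counts depend on which lines and libraries are included. Without F1 no gene was called in V4 against V1 by limma, while 1371 had an unadjusted p below 0.05, and without Mo17 125 were called. Without B73 1106 were called. Leaving out a single library gave 1666 calls without B73 at V1, 501 without Mo17 at V1 and 230 without F1 at V1. It gave 1161, 1024 and 783 without B73, Mo17 and F1 at V3. It gave 97 without B73 at V4, 261 without Mo17 at V4 and 42 without F1 at V4. For the trend the counts were 1023, 22 and 53 without B73, Mo17 and F1 at V1, and 1177, 500 and 838 without them at V3. They were 189 without B73 at V4, 478 without Mo17 at V4 and 242 without F1 at V4. With a whole line left out they were 837 without B73, 3 without Mo17 and 8 without F1. The split of directions depends on the scaling. With the values as deposited, where the median over all genes lay 0.15 higher at V4 on the log2 scale, 778 genes were higher and 311 lower.

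The genes called higher and lower at V4 also differed in where else in the plant they are expressed. Of the 529 higher genes, 208 (39.3%) had their highest organ mean outside the meristem in ear, tassel and inflorescence, against 21.8% of all genes tested. Of the 660 lower genes, 25 (3.79%) did. The lower genes had their highest organ mean in embryo for 29.5%, in primary root for 20% and in stem and internode for 17.1%. Over all genes tested these shares were 18.4%, 13.6% and 10.9%. Leaf was the highest organ for 22.9% of the higher genes and 17.9% of the lower genes, against 20.6% of all.

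The 10 genes that fell most in V4 against V1 had log2 fold changes of -4.44 to -3.01. Among all tissues, 6 of them were highest in a primary root sample and 4 in a leaf sample. Of 9857 paired genes at 1 or more in any mRNA library, 8.53% and 3.3% were highest in the 2 root samples. Each of the 11 leaf samples was highest for 1.28% to 8.5%. These shares are per sample and add up over the 11, so the 4 genes highest in leaf cannot be read as more than among all genes. Some of the 10 stood at 1 or more only in the V1 libraries and passed the filter through them. Zm00001d024281 fell most. Its scaled level was 120, 34.6 and 8.4 in B73 at V1, V3 and V4, and 34.7, 1.03 and 0.253 in Mo17. In F1 it was 95.7, 4.34 and 2.45. The level dropped at each step in each line, and the 3 V4 libraries lay below the 3 V1 libraries. Its log2 fold change was -4.44 ± 0.43 (SE, n = 3 lines, limma adjusted p = 0.00523). On the scale of all 78 libraries it averaged 46.8 to 637 over the lines in leaf tissues and 105 to 278 in stem and internode.

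Zm00001d048020 fell to 1.42, 1.86 and 1.52 in V4 meristems of B73, Mo17 and F1, against 30.4, 30.3 and 72.7 in V1 meristems. At V3 it was already at 3.54, 1.77 and 0.689 in these lines. Fitted over the 3 lines, the log2 fold change was -4.0 ± 0.45 (SE, limma adjusted p = 0.00675). Outside the meristem it was high in primary root, with means of 144 and 241 in the 2 root samples, and in stem and internode, with 74.3 and 99.3. Without F1 its adjusted p was 0.0654, and without F1 at V4 it was 0.0525. That of Zm00001d024281 was 0.164 without F1.

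The 10 genes that rose most had log2 fold changes of 2.38 to 3.34. Among all tissues, 3 of them were highest in an ear, tassel or inflorescence sample, 3 in a leaf sample, 2 in endosperm and 2 in a meristem sample. Of the 9857 genes, each ear, tassel or inflorescence sample was highest for 0.801% to 6.28% and each leaf sample for 1.28% to 8.5%. Endosperm was highest for 5.83%, and each meristem stage for 2.61% to 2.75%. Shares of samples of the same organ add up, so a count by organ cannot be set against the share of a single sample. Zm00001d039997 had the largest estimate. It reached 22.9, 27.9 and 19.8 in V4 meristems of B73, Mo17 and F1, against 2.09, 0.587 and 1.84 in V1 meristems. At V3 it was at 0.259 in B73 but at 21.3 in Mo17 and 14.1 in F1. Its log2 fold change was 3.34 ± 0.89 (SE, limma adjusted p = 0.0482), and the call was lost in 11 of 21 alternatives, in which the adjusted p reached up to 0.262.

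Zm00001d023736 rose evenly. It was at 1.09, 3.63 and 10.1 in B73 at V1, V3 and V4, at 1.28, 5.01 and 24.5 in Mo17 and at 0.958, 3.51 and 18.2 in F1. Each step was upward in each line and the stages did not overlap. Fitted over the 3 lines, the log2 fold change in V4 against V1 was 3.06 ± 0.21 (SE, limma adjusted p = 0.00157), and the call was lost only without F1, where the adjusted p was 0.137. In the other tissues it averaged at most 0.0499 in any leaf sample, 5.39 and 7.45 in stem and internode, and 0.992 to 28.2 over ear, tassel and inflorescence.

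**Figure D2:**
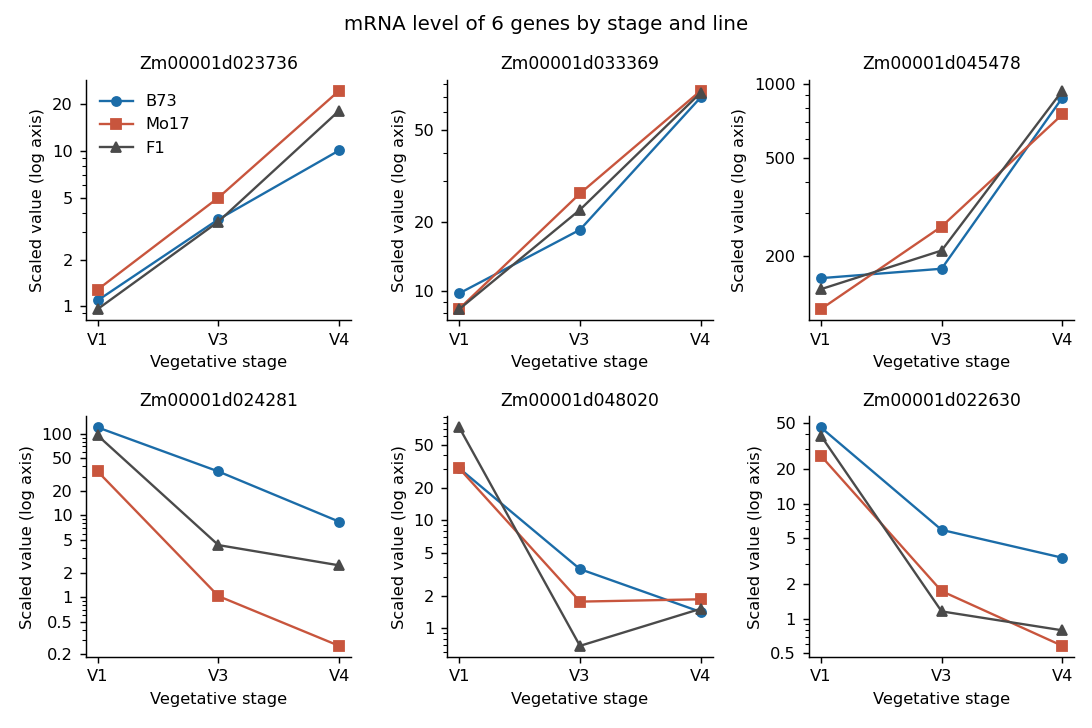
Scaled mRNA level (log axis) of 6 called genes at V1, V3 and V4, 1 point per library and 1 line per genotype, with stages evenly spaced on the horizontal axis. The upper row rises to V4, with Zm00001d033369 at 69.7 in B73, 74.5 in Mo17 and 73 in F1, and the lower row falls after V1.

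Among the 660 genes called lower at V4, the larger part of the difference lay from V1 to V3, the longer interval in stages. Their median log2 difference of V3 from V1 was -0.42 in B73, -0.53 in Mo17 and -0.42 in F1, and that of V4 from V3 was -0.25, -0.10 and -0.14. The V3 and V4 comparisons with V1 share the V1 libraries. In V3 against V1, 502 genes (6.47%) changed, 145 higher (1.87%) and 357 lower (4.6%). Among them 157 (2.02%) changed by 2-fold or more, 11 upwards (0.142%) and 146 downwards (1.88%). The largest fall was that of Zm00001d048020, described above, at -3.91 (limma adjusted p = 0.01), and the next that of Zm00001d022630. The level of Zm00001d022630 was 46, 5.92 and 3.39 in B73 at V1, V3 and V4, 26.1, 1.74 and 0.582 in Mo17 and 39, 1.16 and 0.794 in F1. Its log2 fold change in V3 against V1 was -3.43 ± 0.26 (SE, limma adjusted p = 0.00458). In the other tissues it averaged 15.4 to 1250 over the leaf samples and 0.322 to 392 over ear, tassel and inflorescence. Its adjusted p was 0.0842 without F1.

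Zm00001d014863 rose early. At V3 it was at 23.5, 32.8 and 21.3 in B73, Mo17 and F1, against 2.22, 3.77 and 2.65 at V1, and at V4 it was at 14.8, 50.3 and 16.6. Fitted over the 3 lines, the log2 fold change in V3 against V1 was 2.79 ± 0.25 (SE, limma adjusted p = 0.00798). The adjusted p was 0.224 without F1, 0.06 without F1 at V1 and 0.0551 without F1 at V3. Its leaf means ranged from 2.51 to 74.6. The next largest rise, that of Zm00001d017932, was to 8.42, 3.16 and 3.78 in V3 meristems of B73, Mo17 and F1, against 0.884, 0.909 and 0.751 in V1 meristems (log2 fold change 1.63 ± 0.24, limma adjusted p = 0.0174). That call was lost in 4 of 21 alternatives, with an adjusted p of 0.0626 with no replicate block, 0.289 without F1, 0.0864 without F1 at V1 and 0.0881 without F1 at V3. The number of V3 against V1 calls was 0 without F1 (893 genes at an unadjusted p below 0.05), 289 without B73 and 147 without Mo17. It was 6 without F1 at V1, and 224, 87 and 13 without B73, Mo17 and F1 at V3. It was 246, 275 and 150 without B73, Mo17 and F1 at V4.

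In V4 against V3 only 3 genes (0.0387%) passed the test, all of them higher, while 1543 of the 7758 had an unadjusted p below 0.05. They are named because they are so few. Zm00001d045478 was the most abundant of them. It reached 880, 753 and 940 in V4 meristems of B73, Mo17 and F1, against 178, 264 and 211 in V3 meristems, with 163, 122 and 147 at V1. Its log2 fold change was 1.99 ± 0.18 (SE, limma adjusted p = 0.0422). Outside the meristem its highest tissue means were those of ear, tassel and inflorescence, from 290 to 641.

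Zm00001d033369 was at 69.7, 74.5 and 73 in V4 meristems of B73, Mo17 and F1, against 18.5, 26.6 and 22.6 in V3 meristems. Its V1 values were 9.78, 8.38 and 8.35. The lines thus lay close together at each stage, and the stages did not overlap. The log2 fold change was 1.65 ± 0.13 in V4 against V3 (SE, limma adjusted p = 0.0349) and 2.90 ± 0.13 in V4 against V1 (SE, limma adjusted p = 0.000325). Among the other tissues Zm00001d033369 was highest in endosperm, with a mean of 163, against at most 95.5 over ear, tassel and inflorescence.

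Zm00001d014486 was at 143, 89.9 and 94.7 in V4 meristems of B73, Mo17 and F1, against 57.5, 45.1 and 41.8 in V3 meristems. It stayed at 59.7, 40.9 and 52.6 at V1, so its change came after V3. The log2 fold change in V4 against V3 was 1.15 ± 0.11 (SE, limma adjusted p = 0.0422). Among the other tissues Zm00001d014486 was highest in stem, with a mean of 121, and next in embryo, with 85.2. Its means over ear, tassel and inflorescence were at most 55. These 3 calls are fragile. Of 21 alternatives, 10 ended the call of Zm00001d045478, 10 that of Zm00001d033369 and 15 that of Zm00001d014486. Leaving out a line gave between 0 and 2 calls. Leaving out a library gave 7 calls without B73 at V1, 3 without Mo17 at V3, 1 without Mo17 at V1, 1 without B73 at V4 and 0 without any of the other 5, among which the number at an unadjusted p below 0.05 ranged from 718 to 1254.

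In the differences between single libraries, the lines differed in when the change took place. In B73 the first interval was mainly a fall and the second a rise, but both intervals share the single B73 library at V3. As deposited, that library had 19274 genes at 1 or more, against 20482 at V1 and 20601 at V4. In B73, 38 genes were 2-fold or more higher and 672 lower at V3 than at V1, while 361 were higher and 22 lower at V4 than at V3. For V4 against V1 in B73 these numbers were 103 and 317. In Mo17, 241 were higher and 162 lower at V3 than at V1, and 120 were higher and 27 lower at V4 than at V3. In F1 these numbers were 115 and 300, then 69 and 74. Across the 7758 genes, the V3 minus V1 differences of B73 and Mo17 had a Pearson correlation of 0.0959, those of F1 and B73 of 0.351, and those of F1 and Mo17 of 0.629. The V4 minus V1 differences correlated at 0.402, 0.664 and 0.745 for the same pairs, and the V4 minus V3 differences at 0.467, 0.468 and 0.195. These are correlations over genes within libraries of 1 per stage and line, given as a description, and how the lines differ in timing could not be tested.

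**Figure D3:**
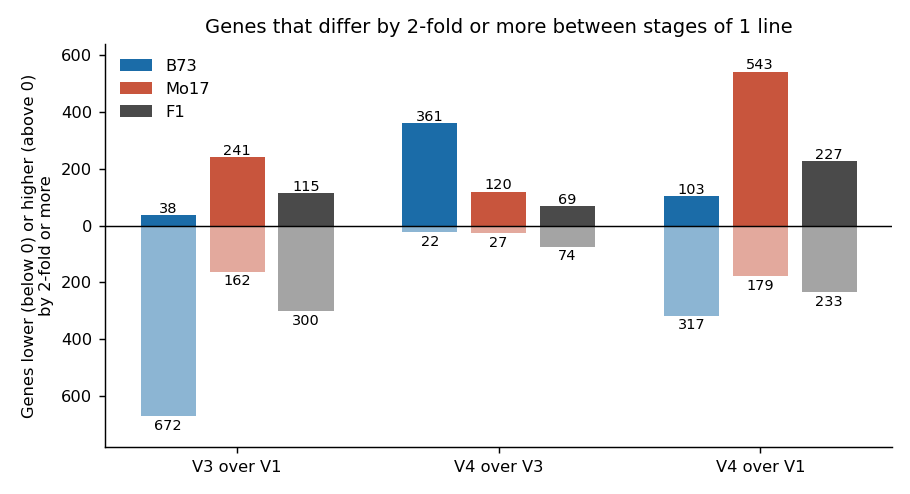
Number of genes with a log2 difference of 1 or more between stages, per line, out of 7758 tested. Bars above 0 count genes higher in the later stage and paler bars below 0 count genes lower in it; B73 has 38 higher and 672 lower at V3 over V1, and 361 higher and 22 lower at V4 over V3. Each difference is between 2 single libraries, without replicates, and the differences within a line share libraries.

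The ear, tassel and inflorescence set also differed between lines in the first interval, as a description. Of its 98 tested members, 50 were higher at V3 than at V1 in B73, 85 in Mo17 and 73 in F1. At V4 against V3, 75 were higher in B73, 74 in Mo17 and 76 in F1. By V4 against V1, 85 were higher in B73, 81 in Mo17 and 89 in F1. The median log2 differences of V3 from V1 were 0.03 in B73, 0.38 in Mo17 and 0.33 in F1. Those of V4 from V1 were 0.42, 0.62 and 0.43. Over all genes tested, 47.3% were higher at V3 than at V1 in B73, 50.3% in Mo17 and 49.8% in F1.

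Genes listed for a single genome could be followed only in that parent and in F1. Of 14478 genes listed for B73 only, 486 (3.36%) changed in V4 against V1, 56 higher and 430 lower, and 583 (4.03%) changed in V3 against V1. Of 15053 genes listed for Mo17 only, 2661 (17.7%) changed in V4 against V1, 1733 higher and 928 lower, and 904 (6.01%) changed in V3 against V1. In V4 against V1, 3420 of the B73-only and 5422 of the Mo17-only genes had an unadjusted limma p below 0.05. The groups thus lay closer by this measure than by the number called. In the trend, 4 B73-only and 2318 Mo17-only genes were called, with 2662 and 4989 at an unadjusted limma p below 0.05. The difference between the groups was not tested. These fits rest on 6 libraries each and were added after the data were seen.

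The circRNA libraries gave between 4925 and 12521 circRNAs each. B73 had 4925, 7773 and 7863 circRNAs above 0 at V1, V3 and V4. Mo17 had 7481, 5953 and 6818, and F1 had 12521, 11770 and 11342. B73 thus had most at V4 while Mo17 and F1 had most at V1. The means were 8309 ± 3870 at V1, 8499 ± 2980 at V3 and 8674 ± 2370 at V4 (SD, n = 3 lines). The slope was 118 circRNAs per stage, and an exact permutation of the stages within each line (216 arrangements, two-sided) gave p = 0.741. Without B73 the slope was -345 with p = 0.167 in the same exact test. V4 against V1 could not reach a p below 0.25 in an exact sign-flip of 3 lines.

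In V4 against V1 the depth moved the same way as these numbers in each line. If the smallest value of a library is what 1 read is worth, the libraries held 14563023, 18711740 and 21295160 reads in B73 at V1, V3 and V4. They held 22602216, 17853387 and 17732145 in Mo17 and 20234573, 17095937 and 18557680 in F1. The reading is least sure for F1 at V1, where 42.3% of values were whole multiples of the smallest within 0.01, against 63.6% to 69.5% in the other 8 libraries. Thinned to 14563023 reads, B73 had 4925, 6800 and 6357 circRNAs at V1, V3 and V4, Mo17 had 5825, 5318 and 6147, and F1 had 10348, 10841 and 9860. After thinning Mo17 was also higher at V4 than at V1. The slope was then 165 per stage (exact permutation p = 0.431).

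The summed circRNA level was lowest at V1 in every line. It was 1151, 1974 and 1729 RPM (back-spliced reads scaled to library size, as deposited) in B73 at V1, V3 and V4. It was 1495, 1553 and 1977 RPM in Mo17 and 2558, 3945 and 2871 RPM in F1. V4 exceeded V1 by 1.12 to 1.5 times and V3 exceeded V1 by 1.04 to 1.72 times over the lines. The means were 1735 ± 733 RPM at V1, 2491 ± 1280 RPM at V3 and 2192 ± 601 RPM at V4 (SD, n = 3 lines). The slope was 185 RPM per stage with p = 0.199 (exact permutation within lines, two-sided), and V4 against V1 gave p = 0.25, the smallest the exact sign-flip allows. Counting only circRNAs with a position in both genomes, the sums were 352, 663 and 558 RPM in B73 at V1, V3 and V4, 623, 664 and 868 RPM in Mo17 and 619, 1040 and 713 RPM in F1.

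**Figure D4:**
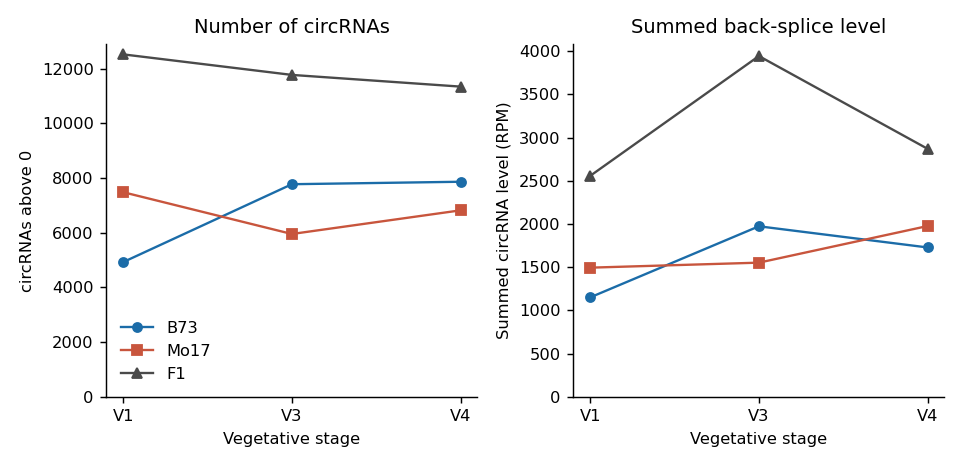
Number of circRNAs above 0 (left) and their summed level in RPM (right) per library at V1, V3 and V4, 1 line per genotype, with stages evenly spaced on the horizontal axis. The number is highest at V4 in B73 and at V1 in Mo17 and F1, while the sum is lowest at V1 in each line (1151 RPM in B73, 1495 in Mo17, 2558 in F1).

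Few circRNAs recurred from stage to stage, but those that did carried most of the signal. Of 14218 circRNAs found in the B73 meristem at any stage, 9884 were seen at 1 stage only and 2009 (14.1%) at all 3. Those 2009 held 75.5% of the summed RPM. In Mo17, 2188 of 13768 (15.9%) were seen at all 3 stages, with 79.7% of the RPM, and in F1 3742 of 24356 (15.4%), with 79.6%. Between 48.9% and 51.4% of the values above 0 lay at the smallest value in 8 libraries, and 33.9% in F1 at V1. A circRNA missing at a stage may thus be below detection at this depth.

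Many meristem circRNAs were seen in no other tissue of their line, but they seldom recurred. B73 had 3975 such circRNAs (28%), of which 126 were seen at 2 or more stages and 3 at all 3. Mo17 had 4043 (29.4%), with 134 and 6. F1 had 7471 (30.7%), with 268 and 3. By the median over pairs, libraries of the same line shared little more than libraries of different lines. Counting circRNAs placed on both genomes, a pair of stages of the same line shared a median of 29.4% of those found in either (27.6% to 35.5%, 9 pairs). A pair of lines at the same stage shared 28.8% (23.1% to 31.1%, 9 pairs), and at different stages 28.5% (23.3% to 30.3%, 18 pairs). The Mo17 stage pairs (33.6% to 35.5%) and B73 at V3 and V4 (33.6%) lay above every pair of different lines. The pairs with B73 at V1 and those of F1 (27.6% to 29.4%) did not. Depth was not made equal for these shares.

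Stage tests on single circRNAs used 1329 that have a position in both genomes and were above 0 in at least 5 of the 9 libraries. In V4 against V1, 1 circRNA (0.0752%) passed the test, and 112 had an unadjusted p below 0.05. The trend called 1 as well (0.0752%). In V3 against V1, 4 (0.301%) passed, all higher, and in V4 against V3 limma called none, with 63 at an unadjusted p below 0.05. The median log2 fold change over the 1329 was 0.24 in V4 against V1, and 64.9% lay above 0. In V3 against V1 the median was 0.34, with 67.2% above 0. When each library was scaled by its summed level of circRNAs placed on both genomes, the medians were 0.00 and 0.01, with 49.7% and 50.6% above 0. The circRNAs tested are part of that sum, so medians near 0 were largely set by the scaling. What the common upward shift went with cannot be read from them. V4 lay above V1 in all 3 lines for 267 circRNAs (20.1%) and below for 61 (4.59%), and V3 above V1 for 283 (21.3%) and below for 67 (5.04%).

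The circRNA called in V4 against V1, in the trend and in V3 against V1 was Zmcirc001438. It lies on chromosome 1 from 264627200 to 264629077 on the plus strand (B73 RefGen_v4), spans 1878 bp and is hosted by Zm00001d033502. Its level was 2.79, 13 and 8.95 RPM in B73 at V1, V3 and V4. In Mo17 it was 0.0442, 0.317 and 0.545 RPM, and in F1 2.79, 6.55 and 6.24 RPM. Each line was higher at V4 and at V3 than at V1, and Mo17 was lowest at every stage. The log2 fold change was 1.85 ± 0.35 in V4 against V1 (SE, limma adjusted p = 0.0163) and 1.82 ± 0.35 in V3 against V1 (SE, limma adjusted p = 0.0106). The Mo17 value at V1 is the smallest value of that library and equals the pseudocount, so the fold in Mo17 starts from the floor. Without Mo17 the log2 fold change in V4 against V1 was 1.41 (limma adjusted p = 0.0816). The host mRNA was at 22.7, 34.1 and 27.7 in B73 at V1, V3 and V4, at 26.3, 21.6 and 18.1 in Mo17 and at 25.6, 28.1 and 18.8 in F1, in scaled values. The V4 against V1 call was lost in 14 of 18 alternatives, and leaving out a library gave 0 calls, except for 1 without F1 at V3 and 4 without Mo17 at V3. Outside the meristem this circRNA had a median of 15.9 RPM over the B73 ear, tassel and inflorescence samples and 4.57 RPM over the B73 leaves.

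The other 3 circRNAs called in V3 against V1 were also higher at V3 in each line. Zmcirc000129, on chromosome 6 from 148811834 to 148812454 on the minus strand (621 bp, host Zm00001d038128), reached 1.16, 1.08 and 0.996 RPM in V3 meristems of B73, Mo17 and F1, against 0.206, 0.147 and 0.281 RPM in V1 meristems. Fitted over the 3 lines, the log2 fold change was 2.16 ± 0.41 (SE, limma adjusted p = 0.0106), while its host mRNA differed by -0.15. At V4 it stood at 1.14, 0.714 and 0.503 RPM. The V3 libraries do not overlap the V1 libraries.

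Zmcirc001279, on chromosome 1 from 81797633 to 81798533 on the minus strand (901 bp, host Zm00001d029663), reached 4.65, 6.35 and 12.2 RPM in V3 meristems of B73, Mo17 and F1, against 1.51, 3.33 and 3.75 RPM in V1 meristems. At V4 it was at 3.85, 3.76 and 5.69 RPM. Its log2 fold change in V3 against V1 was 1.40 ± 0.32 (SE, limma adjusted p = 0.049), with -0.07 for the host mRNA. Zmcirc001309, on chromosome 1 from 117667248 to 117681326 on the plus strand (14079 bp, host Zm00001d030266), was at 0.445, 0.336 and 0.449 RPM in V3 meristems of B73, Mo17 and F1. At V1 it was at 0, 0 and 0.0498 RPM. Its limma adjusted p was 0.0211, and no fold is given because 2 of the V1 libraries stood at 0. Of 18 alternatives, 10 ended the call of Zmcirc000129, 10 that of Zmcirc001309, 10 that of Zmcirc001438 and 12 that of Zmcirc001279. The number of V3 against V1 calls was 0 without B73 (91 at an unadjusted p below 0.05), 0 without F1 (110) and 56 without Mo17. It was 28 without Mo17 at V1, 41 without Mo17 at V3 and 24 without Mo17 at V4. It was 0 without B73 or F1 at V1 (108 and 151) and 0 without B73 or F1 at V3 (126 and 128).

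**Figure D5:**
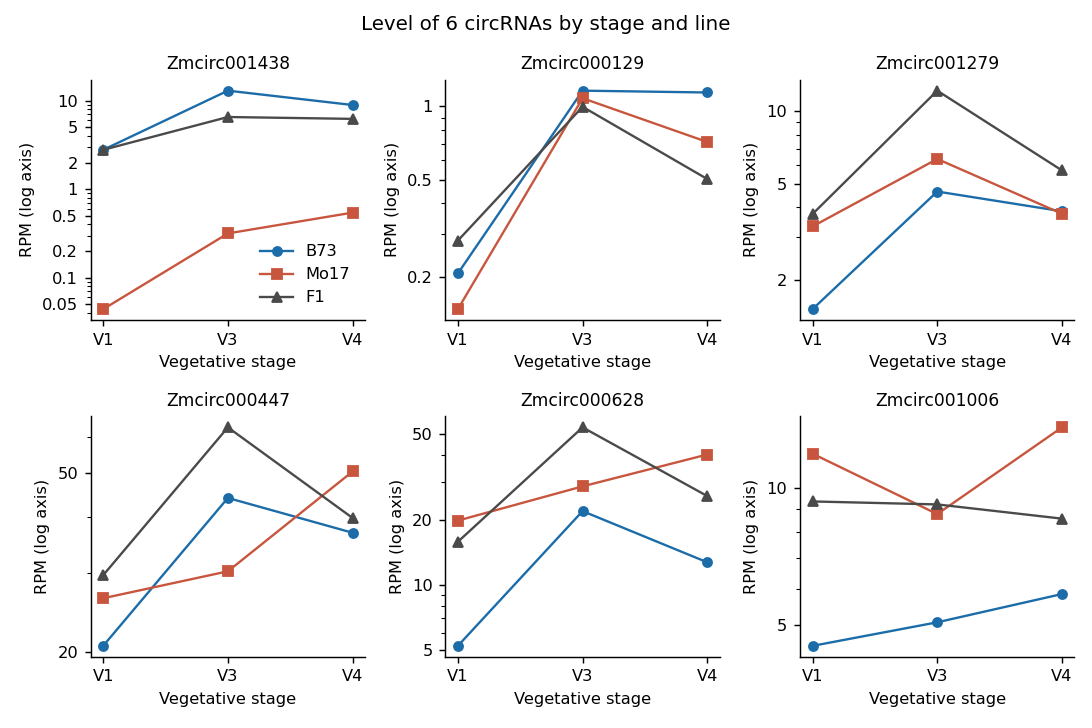
Level in RPM (log axis) of 6 circRNAs at V1, V3 and V4, 1 point per library and 1 line per genotype, with stages evenly spaced on the horizontal axis. The upper row holds 3 circRNAs called in V3 against V1, each higher at V3 than at V1 in the 3 lines, and the lower row 3 of the most abundant circRNAs, of which Zmcirc001006 shows no common direction.

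In all 9 libraries 393 circRNAs were found, which held 64.1% of the RPM of circRNAs placed on both genomes. In all 3 lines, 140 of them were higher at V4 than at V1 and 23 lower. Over all 1329 tested, of which they are part, it was 267 (20.1%) and 61 (4.59%). The whole set leaned upwards, with 64.9% above 0, or 49.7% with each library scaled by its summed level of circRNAs placed on both genomes. Zmcirc000447, on chromosome 4 from 60866698 to 60868024 on the minus strand (1327 bp, host Zm00001d050024), had the highest mean among them. It was at 20.6, 44 and 36.8 RPM in B73 at V1, V3 and V4, at 26.3, 30.2 and 50.4 RPM in Mo17 and at 29.6, 63.2 and 39.7 RPM in F1. Each line was higher at V3 and at V4 than at V1. The log2 fold change in V4 against V1 was 0.73 ± 0.33 and did not pass the test (SE, limma adjusted p = 0.529). Its host mRNA stayed between 15.8 and 20.4 in scaled values in all 9 libraries. The circRNA was higher still in the tassel of 1 cm, at 105 RPM in B73, 107 RPM in Mo17 and 95.4 RPM in F1, and had a median of 1.99 RPM over the B73 leaves.

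Counted by host identifier, Zm00001d040166 on chromosome 3 had the most circRNAs in the Mo17 and F1 meristem, with 41 and 78 over the stages. In B73 it came second with 58, after Zm00001d046039 on chromosome 9 with 60. CircRNAs placed on the Mo17 genome only carry Mo17 host identifiers and were counted apart. The Mo17 and F1 counts and sums of a host may therefore be partial, and are not comparable with those of B73. The summed level of the circRNAs under Zm00001d040166 was 14, 46.9 and 30.8 RPM in B73 at V1, V3 and V4, 33.9, 44.8 and 65.2 RPM in Mo17 and 32.5, 102 and 47.4 RPM in F1. The most abundant of them was Zmcirc000628, which spans 12121 bp from 30128345 to 30140465 on the minus strand. That circRNA was at 5.22, 21.9 and 12.7 RPM in B73 at V1, V3 and V4, at 19.8, 28.5 and 40 RPM in Mo17 and at 15.8, 53.4 and 25.7 RPM in F1. Fitted over the 3 lines, the log2 fold change was 1.00 ± 0.34 in V4 against V1 (SE, limma adjusted p = 0.442) and 1.45 ± 0.34 in V3 against V1 (SE, limma adjusted p = 0.056), neither past the threshold. By contrast Zmcirc001006, on chromosome 2 from 81995013 to 81995861 on the minus strand (849 bp, host Zm00001d004091), had a log2 fold change of 0.15 ± 0.31 in V4 against V1 (SE, limma adjusted p = 0.95).

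The direction of circRNAs was set beside that of their hosts. Of 78 circRNAs from 53 hosts called lower, 53 had a positive log2 fold change and 25 a negative one, with a median of 0.13, while the median of their hosts was -0.48. Of 49 circRNAs from 31 hosts called higher, 33 had a positive and 16 a negative log2 fold change, with a median of 0.17. Over all 1329 circRNAs 862 were positive and 467 negative, so both groups lay near the share of all, 64.9%. That share was 49.7% with each library scaled by its summed level of circRNAs placed on both genomes. In V3 against V1, 4 of 13 circRNAs from hosts called lower and 36 of 51 from hosts called higher had a positive log2 fold change, against 893 of 1329. CircRNAs of a host share it and are not independent, so these counts were not tested.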

How the data were processed

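Samples were assigned to stage and line by the labels, and columns to samples by name. The mRNA values of Mo17 are TPM as deposited by the authors, since each meristem column sums to between 1000010 and 1000020. Those of B73 and F1 are a signal in a unit no label or header names, as deposited by the authors, with meristem column sums of 540607 to 630870 in B73 and 1283600 to 1382400 in F1. Values lay on 3 equal parts of the sixth decimal in 98.7% of B73, 99.0% of Mo17 and 89.8% of F1 entries (tolerance 0.02), as means of 3 would, so depth is unknown and counts were not used. The circRNA values are RPM as deposited by the authors. HISAT, StringTie, SAMtools and TopHat were used, per the submitters' processing notes, which give no version here, and B73 RefGen_v4 is the build. The 3 mRNA tables were normalized separately, so levels between lines rest on the scaling here, and the stage tests compare stages within lines.

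Stage comparisons used limma 3.58.1 (R 4.3.3), its trend option on. The pseudocount was 1 for mRNA and the smallest value above 0 for circRNA. Reported fold changes include that pseudocount, so those of low features come out too small. The fit was tested on simulated data. Line pairs the samples through the labelled genotype, and deviations of a line from the stage means correlated between its stages at 0.488 to 0.873 for mRNA and 0.158 to 0.579 for circRNA. The genes named were the 2 that rose and the 2 that fell most among those called and changed alike in all lines, from the 10 in each direction that the rule covers (3 for the V3 comparisons). The circRNAs named were those called, with 3 of high mean and the hosts with most circRNAs. The fixed design named no such limit of 2, which follows from the lack of gene names. The 3 abundant circRNAs were chosen after their values were seen. The comparisons, members and lists were chosen with earlier results of these data known. Organ sets needed a level of 10 or more in the organ, with 0.1 added before the ratio. Alternatives are given in the closing section.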

Additional observations from a re-analysis of the deposited data

Results flagged for a closer look

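The number of circRNAs in V4 against V1 meristems differed in direction between lines. It was higher by 2938 in B73, while the difference was -663 in Mo17 and -1179 in F1. With 1 library per stage and line the difference between lines was not tested. The implied depth was higher at V4 in B73 and lower in Mo17 and F1, with 21295160 reads at V4 against 14563023 at V1 in B73, 17732145 against 22602216 in Mo17 and 18557680 against 20234573 in F1. After thinning to 14563023 reads Mo17 had 6147 circRNAs at V4 against 5825 at V1, B73 6357 against 4925 and F1 9860 against 10348.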

How the results depend on the processing

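With no replicate block, 253 genes were called in V4 against V1, 315 in the trend and 60 in V3 against V1, against 1189, 885 and 502 with line as a block, and for circRNA 0 were called in V4 against V1, 0 in the trend and 0 in V3 against V1. In the fit of all 26 tissues, 607 genes were called in V4 against V1, 198 in V3 against V1 and 34 in V4 against V3, and 0 circRNAs in V4 against V1 and 0 in the trend. A minimum of 2-fold left 262 genes in V4 against V1, 240 in the trend and 157 in V3 against V1. With values as deposited V3 against V1 gave 307 genes. With no filter V4 against V3 gave 0 genes. For circRNA, requiring 3 libraries above 0 gave 0 calls in V4 against V1, 0 in the trend and 0 in V3 against V1. Requiring 7 gave 2 in the trend and 27 in V3 against V1. A pseudocount 10 times larger gave 0 in the trend and 29 in V3 against V1. Scaling by the summed level of circRNAs placed on both genomes gave 0 in V4 against V1, 0 in the trend and 2 in V3 against V1. Scaling also turned Zmcirc001006 in V4 against V1 to -0.298.

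With a line or a library left out, mRNA calls ranged from 0 to 1666 in V4 against V1, from 3 to 1177 in the trend, from 0 to 518 in V3 against V1 and from 0 to 7 in V4 against V3. CircRNA calls ranged from 0 to 4, 0 to 1, 0 to 56 and 0 to 0 in these comparisons. The slope of the number of circRNAs ranged from -345 to 372 per stage, and that of the summed level from 165 to 206 RPM per stage. The slopes without the block were 118 (exact permutation p = 0.867) and 185 (exact permutation p = 0.476). The medians of the ear, tassel and inflorescence set and of the stem and internode set kept their direction in V4 against V1 under all 21 alternatives. With 1 pooled library per stage and line, depth limits circRNAs of low level, and the number of lines limits every test.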
